A study of Mus musculus with 6 samples.

Results

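The genes described here mark the epithelium of the Müllerian duct: duct transcription factors, keratins, junction and polarity proteins, epithelial regulators of transcription and splicing, surface proteases with their inhibitors, and apical proteins. They were taken by symbol from a list of 36 genes, of which 35 had a row among the 22206 transcript clusters tested, each with a single row. Foxj1, a regulator of motile cilia, was not analysed here. RNA came from Müllerian ducts dissected from mouse embryos at E17.5, with 3 control and 3 mutant arrays, 1 embryo per array. Every embryo carried floxed Lats1 and Lats2 (Lats1f/f, Lats2f/f), the genes of the kinases that restrain YAP and TAZ. The mutants carried in addition Cre recombinase in 1 Amhr2 allele (Amhr2cre/+). Controls had no Cre, so the groups differ in the Amhr2 allele as well as in the recombination it drives. In the duct Amhr2 is expressed in the mesenchyme, so the epithelium is not the layer in which this Cre is known to act. The labels do not give the sex of the embryos.

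The Müllerian duct is an epithelial tube wrapped in mesenchyme, and it becomes the oviducts, uterus and upper vagina. Lhx1, Pax2 and Emx2 are needed for the tube to form, and signals from the surrounding mesenchyme later direct the fate of its epithelium. Simple epithelia are held together by E-cadherin, claudins and desmosomes, and carry the keratin pair K8 and K18. Several of these genes are shared with the Wolffian duct, the mesothelium and the urothelium, so a signal from whole ducts does not say which epithelium it came from.

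Values are log2 signals as deposited, and a difference of 1 is a 2-fold change. The median of the background probes ran from 5.35 to 5.88 over the arrays, and array medians from 6.87 to 6.95. Of the 35 genes, 28 lay above background on all 6 arrays, among them Pax2, Pax8, Emx2, Epcam, Cdh1 and the 4 keratins. Another 3 (Sox17, Crb3 and St14) were below it on 1 array each. Lhx1, Foxa2, Ovol1 and Ovol2 were below it on every array. Of the defining duct factors Lhx1 was therefore at background level in both genotypes.

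RefSeq promoter windows of GRCm38.p6, each running from 250 bases before to 50 after the annotated start, were found for 25 of the 35 genes in 33 windows of 300 bases. No window was matched for Cdh1, Cdh3, Ehf, Esrp1, Esrp2, Grhl2, Krt19, Ovol1, Sox17 and St14. Windows are printed for the 7 genes with a window that passed a test in at least 1 set of arrays below, and for Krt18, which forms a filament pair with Krt8. These were chosen with their values known. They lie at chr3:89228806-89229105 (Muc1, plus strand), chr15:101412153-101412452 (Krt7, plus), chr15:102004293-102004592 (Krt8, minus), chr15:102027966-102028265 (Krt18, plus), chr1:135258423-135258722 (Elf3, minus), chr11:100397741-100398040 (Jup, minus), chr13:53472731-53473030 (Msx2, minus) and chr11:84525485-84525784 (Lhx1, minus). Capitals mark CAGGTG or its reverse complement CACCTG, the E2-box that repressors of epithelial genes of the Snail and Zeb families are known to bind.
Muc1: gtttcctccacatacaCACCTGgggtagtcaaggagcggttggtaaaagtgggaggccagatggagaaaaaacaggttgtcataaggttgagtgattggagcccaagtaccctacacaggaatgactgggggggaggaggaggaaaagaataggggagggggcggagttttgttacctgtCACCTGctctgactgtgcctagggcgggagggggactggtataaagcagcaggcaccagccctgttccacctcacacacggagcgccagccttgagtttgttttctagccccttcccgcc
Krt7: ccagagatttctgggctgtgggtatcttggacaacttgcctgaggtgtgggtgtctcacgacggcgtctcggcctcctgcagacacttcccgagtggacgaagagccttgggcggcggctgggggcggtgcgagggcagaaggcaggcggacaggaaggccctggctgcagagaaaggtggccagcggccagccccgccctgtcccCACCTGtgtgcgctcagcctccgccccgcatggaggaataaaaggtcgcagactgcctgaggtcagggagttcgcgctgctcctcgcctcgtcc
Krt8: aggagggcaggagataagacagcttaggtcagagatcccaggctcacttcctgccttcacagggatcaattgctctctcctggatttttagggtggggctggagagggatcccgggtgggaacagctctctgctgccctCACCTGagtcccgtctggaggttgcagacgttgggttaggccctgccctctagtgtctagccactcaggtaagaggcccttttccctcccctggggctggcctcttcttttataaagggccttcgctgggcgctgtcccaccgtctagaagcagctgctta
Krt18: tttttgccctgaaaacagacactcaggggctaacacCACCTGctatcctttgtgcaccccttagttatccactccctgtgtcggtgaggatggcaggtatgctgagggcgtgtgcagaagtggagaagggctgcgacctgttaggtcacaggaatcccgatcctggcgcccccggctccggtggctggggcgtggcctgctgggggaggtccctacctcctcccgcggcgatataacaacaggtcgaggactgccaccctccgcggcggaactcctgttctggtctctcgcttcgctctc
Elf3: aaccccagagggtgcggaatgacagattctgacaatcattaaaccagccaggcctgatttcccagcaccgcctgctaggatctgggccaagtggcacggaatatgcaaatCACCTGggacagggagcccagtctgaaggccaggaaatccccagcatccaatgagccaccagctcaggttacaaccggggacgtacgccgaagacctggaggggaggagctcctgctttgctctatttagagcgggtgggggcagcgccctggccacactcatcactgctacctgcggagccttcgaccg
Jup: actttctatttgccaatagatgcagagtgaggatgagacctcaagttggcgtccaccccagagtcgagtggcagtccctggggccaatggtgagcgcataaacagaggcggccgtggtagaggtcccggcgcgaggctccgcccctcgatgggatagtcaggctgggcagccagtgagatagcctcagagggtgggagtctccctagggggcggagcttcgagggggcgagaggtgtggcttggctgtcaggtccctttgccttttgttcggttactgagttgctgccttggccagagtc
Msx2: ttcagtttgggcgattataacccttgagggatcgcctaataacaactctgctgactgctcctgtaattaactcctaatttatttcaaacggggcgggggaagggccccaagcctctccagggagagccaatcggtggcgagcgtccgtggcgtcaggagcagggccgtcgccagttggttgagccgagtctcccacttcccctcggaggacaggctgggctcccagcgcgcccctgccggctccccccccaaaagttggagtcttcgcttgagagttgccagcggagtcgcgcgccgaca
Lhx1: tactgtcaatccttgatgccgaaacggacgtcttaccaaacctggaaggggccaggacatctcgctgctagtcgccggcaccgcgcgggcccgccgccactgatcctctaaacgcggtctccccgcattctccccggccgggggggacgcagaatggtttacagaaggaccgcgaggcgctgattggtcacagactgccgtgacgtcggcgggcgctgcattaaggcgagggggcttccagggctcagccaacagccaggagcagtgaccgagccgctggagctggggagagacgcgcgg

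Of the 25 genes with a window, 18 held the letters CAGGTG on either strand, and 20 of the 33 windows (60.6%) did, against 20.2% of all 32851 windows in the table. The windows of these genes had a median GC content of 60.7%, against 52.7% over all windows, and the part of base composition in the match was not tested. Muc1 carried the E2-box at 234 and 70 bases before the start, Krt7 at 44, Krt8 at 111, Krt18 at 214 and Elf3 at 140. Jup, Msx2 and Lhx1 had none in their windows, nor had Emx2, Foxa2, Ovol2 and Spint1. The hexamer GGAATG, the core bound by TEAD factors with YAP and TAZ, was in the windows of 5 genes (Muc1, Elf3, Cldn6, Cldn7 and Crb3), or 15.2% of windows against 14.7% of all. The Grainyhead-like motif AACNNGTT was in 4 genes (Muc1, Pax2, Prom1 and Rab25), or 15.2% of windows against 4.2%. Its shorter form ACCGG, which overlaps it where the N are C and G, was in 9 genes, or 27.3% of windows against 24.3%. A match describes letters and is no evidence of binding.

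Across genotypes, Cdh3 and Muc1 were higher in mutant ducts, about 3-fold each, and most other epithelial genes did not separate the genotypes. Over all 6 arrays 3 of the 35 genes rose (Cdh3, Muc1 and Lhx1), or 8.57%, where 2.59% of all tested transcript clusters rose. All 6 values of Lhx1 were below background. Sox17 was the only 1 of the 35 that fell, or 2.86% against 0.666% of all, and 3.26% of all passed in either direction. The other 31 did not pass an adjusted p of 0.05 in limma's moderated test with Benjamini-Hochberg adjustment over all rows. The median log2 difference of the 35 was 0.06, beside -0.01 over all transcript clusters. Without control 3, 4 genes rose (Cdh3, Muc1, Krt7 and Jup), or 11.4% where 2.54% of all rose and 3.14% passed in either direction. None fell, against 0.594% of all, with 3 lower at an unadjusted p under 0.05. The median was then 0.24, beside -0.01 over all transcript clusters. Control 3 was the highest control for 21 of the 35 genes, Krt7 and Jup among them. The fit without it therefore describes the other 5 arrays and is no separate test.

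**Figure D1:**
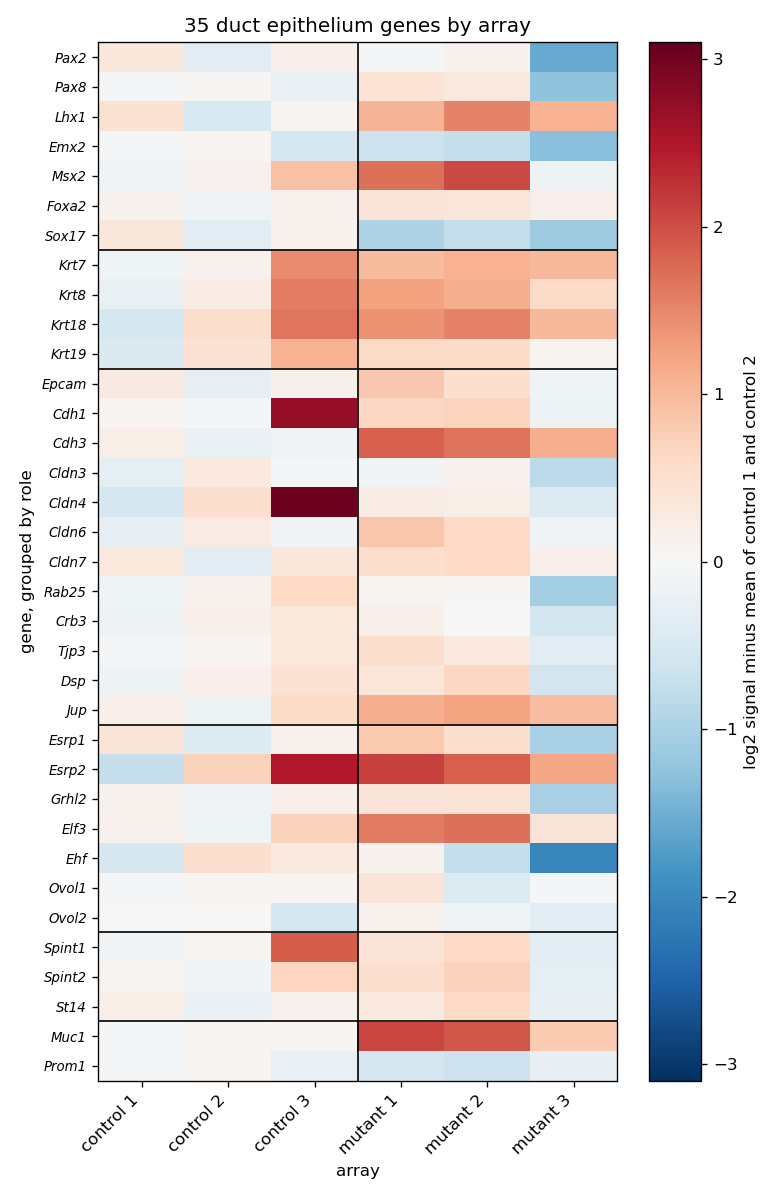
Log2 signal of each of the 35 genes (rows, grouped by role) on each of the 6 arrays (columns), minus that gene's mean of control 1 and control 2. Control 3 stands out for Cldn4, Cdh1, Esrp2, Spint1 and the keratins, mutant 3 for low Ehf, Pax2, Pax8, Esrp1 and Grhl2, and Cdh3 and Muc1 are higher in all mutants.

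A single array in each genotype carried much of the spread, and both are given before the genes. In control 3 the signal exceeded both other controls for 21 of the 35 genes (60.0%), against 32.5% of all transcript clusters. For 8 genes (Krt7, Krt8, Krt18, Krt19, Cdh1, Cldn4, Esrp2 and Spint1) it lay more than 1 log2 unit above the mean of control 1 and control 2, as did 1.77% of all rows. In mutant 3 the signal was below both other mutants for 31 of the 35 (88.6%), against 36.0% of all. For 10 genes (Pax2, Pax8, Msx2, Rab25, Dsp, Esrp1, Grhl2, Elf3, Ehf and Muc1) it lay more than 1 unit below the mean of mutant 1 and mutant 2, as did 0.838% of all rows. The distance of 1 unit was chosen after the values were seen. No gene was in both sets. In mutant 3 the mean of 12 mesenchyme markers was also the lowest of the mutants, 11.13 against 11.28 and 11.57, and it was the lowest mutant for 8 of the 12. The mean of 6 mesothelial markers that neither these genes nor the urothelial list hold was 10.73, against 10.34 and 10.19 in the other mutants, and that of the endothelial markers 10.27, against 9.92 and 10.26. What set mutant 3 apart was not tested, and in whole ducts fewer epithelial cells and less RNA per cell, for example, cannot be told apart.

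Markers of other tissue moved with control 3. Of 11 urothelial markers measured, 10 were highest there, and the mean signal of the list was 9.06 in control 3, 4.89 and 5.15 in the other controls, and between 5.05 and 5.21 in mutants. Upk2, a uroplakin of the bladder lining, was 8.27 above the mean of control 1 and control 2, Psca 8.01, Upk1a 5.78 and Snx31 4.54. On the other 5 arrays Upk2, Upk3a, Psca, Trp63 and Snx31 were below background, and Krt5, Krt13 and Krt20 were below it on all 6. None of the 11 passed over all 6 arrays or without control 3 in limma's test, with 0 and 2 at an unadjusted p under 0.05. Smooth muscle markers were highest of the controls in control 3 for 9 of 12, with a list mean of 11.35 there, 8.87 and 9.77 in the other controls and between 9.66 and 10.06 in mutants. Actg2 was 5.92 above the mean of control 1 and control 2, Myh11 5.43, Cnn1 5.07 and Acta2 2.66. Of the 12, Tagln rose by 2.92 ± 0.30 (limma adjusted p = 0.00108) and Synpo2 fell by 2.64 on the log2 scale (SE 0.33; adjusted p = 0.00286) over all arrays. Without control 3, Tagln (3.08 ± 0.33), the calponin gene Cnn1 (3.08 ± 0.54) and the smooth muscle actin gene Acta2 (2.89 ± 0.41) rose (limma adjusted p = 0.00171, 0.0178 and 0.00712), and Synpo2 fell by 2.20 (SE 0.20; adjusted p = 0.000752). What part these markers play in the epithelial values of control 3 was not tested. The counts of duct epithelium genes that passed are given with and without that array. For some genes, such as Epcam, Dsp and Prom1, no estimate without control 3 alone is given.

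**Figure D2:**
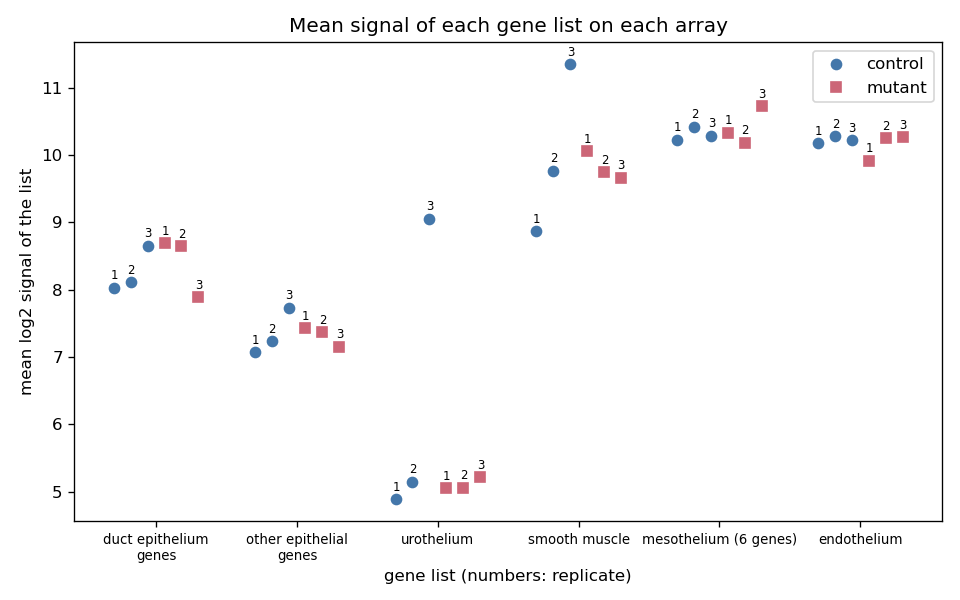
Mean log2 signal (vertical axis) of 6 gene lists on each array, with the replicate number above each point, circles for control and squares for mutant. The mesothelium list is drawn without Krt19 and Upk1b. The urothelium and smooth muscle lists are highest in control 3, and the duct epithelium genes run from 7.89 in mutant 3 to 8.69 in mutant 1.

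Among the cadherins and other junction genes, Cdh3, which encodes P-cadherin, rose 2.99-fold. It read 10.13, 9.72 and 9.82 in control 1, 2 and 3 and 11.76, 11.60 and 11.04 in mutant 1, 2 and 3. The lowest mutant stood above the highest control, and control 3 lay among its group. The log2 difference was 1.58 ± 0.22 (SE, n = 3 each; limma adjusted p = 0.00504), and 1.55 ± 0.26 without control 3 (adjusted p = 0.0143). Dropping any single array kept the call (adjusted p from 0.00501 to 0.0290 over 6 fits). With these 35 genes 14.3% had mutants wholly above controls (Cdh3, Muc1, Jup, Lhx1 and Foxa2), against 10.9% of all transcript clusters, and 8.57% wholly below (Emx2, Sox17 and Prom1), against 10.2%. Lhx1 and Foxa2 were below background on all 6 arrays, as were 32.5% of all transcript clusters.

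Cdh1, the gene of E-cadherin, is the neighbour of Cdh3 on chromosome 8, with no protein-coding gene between them in RefSeq. It read 9.66 and 9.56 in control 1 and control 2 but 12.34 in control 3, and 10.26, 10.31 and 9.46 in the mutants. Control 3 was thus above every mutant, and the other controls lay within the mutant range. The difference was -0.51 with a 95% interval from -1.96 to 0.94 over all arrays, and 0.40 without control 3 (interval from -0.22 to 1.02). Neither passed (limma adjusted p = 0.776 and 0.567).

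**Figure D3:**
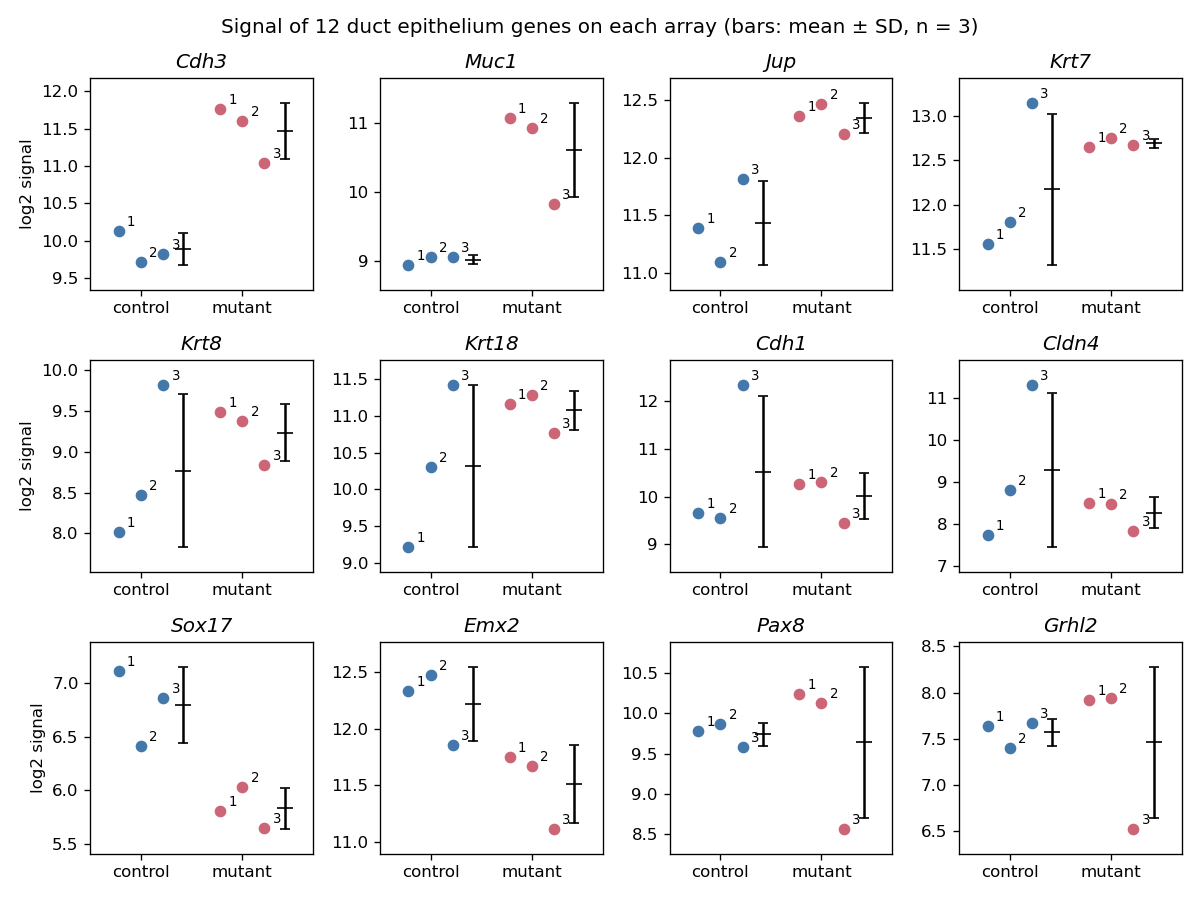
Log2 signal (vertical axis, scaled to each gene) of 12 genes on each array, points numbered by replicate, with the group mean and SD beside them (n = 3). Cdh3, Muc1 and Jup are higher, and Sox17 and Emx2 lower, in all mutants than in all controls. Control 3 lies above all mutants for Krt7, Krt8, Krt18, Cdh1 and Cldn4, and mutant 3 is lowest for Pax8 and Grhl2.

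Jup, whose plakoglobin links cadherins and desmosomes to the cytoskeleton, read 11.39, 11.09 and 11.82 in the controls. The mutants read 12.36, 12.47 and 12.20, all above the controls. Its difference of 0.91 ± 0.21 missed the threshold over all arrays (limma adjusted p = 0.0521) and passed without control 3, with 1.11 ± 0.20 (adjusted p = 0.0205). The latter fit drops the control with the highest Jup value, so it is a description and no separate test. The desmosomal plaque gene Dsp, the partner of plakoglobin at desmosomes, showed no such separation. It read 7.61, 7.93 and 8.23 in control and 8.14, 8.42 and 7.20 in mutant ducts, a difference of -0.002 with an interval from -0.70 to 0.69.

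The claudins seal tight junctions, and Cldn3 and Cldn4 are adjacent genes on chromosome 5. Cldn4 read 7.74, 8.80 and 11.31 in control 1, 2 and 3 and 8.49, 8.47 and 7.84 in the mutants. Its difference was -1.02 (interval from -2.65 to 0.62), and -0.003 without control 3 (interval from -0.75 to 0.75). Cldn3 did not share the high value of control 3: the controls read 6.71, 7.30 and 6.96 and the mutants 6.92, 7.13 and 6.18. Cldn6, a claudin of early epithelia, read 7.59, 8.08 and 7.76 in control and 8.69, 8.46 and 7.72 in mutant ducts, where mutant 3 fell within the control range. Cldn7 read 6.55, 5.89 and 6.58 in control and 6.74, 6.85 and 6.38 in mutant ducts. None of the 4 claudins passed over all arrays or without control 3, and at an unadjusted p under 0.05 none did either.

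Epcam, an adhesion protein of most epithelia, read 9.10, 8.57 and 8.99 in the controls and 9.68, 9.34 and 8.69 in the mutants. Its difference was 0.35 with an interval from -0.24 to 0.95. The apical trafficking GTPase Rab25 read 8.54, 8.82 and 9.31 in control and 8.78, 8.72 and 7.63 in mutant ducts. The polarity gene Crb3 read between 6.09 and 6.56 in control and between 5.68 and 6.41 in mutant ducts, with mutant 3 below background. Tjp3, a scaffold of tight junctions, ranged from 7.75 to 8.15 in control and from 7.45 to 8.36 in mutant ducts. For these 4 genes mutant 3 was the lowest mutant and no difference passed. It was the lowest mutant for all 12 adhesion, junction and polarity genes. Of the 12, only Cdh3 rose over all arrays, Cdh3 and Jup rose without control 3, and none fell, with none lower at an unadjusted p under 0.05 in either fit.

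Krt7, Krt8 and Krt18 were higher in every mutant than in control 1 and control 2, and all 4 keratins were highest in control 3. Krt7, a type II keratin of simple epithelia, read 11.56, 11.80 and 13.15 in control 1, 2 and 3 and 12.66, 12.75 and 12.68 in the mutants. The mutants were close together, with an SD of 0.05 against 0.86 in the controls. The difference of 0.52 ± 0.36 over all arrays did not pass (limma adjusted p = 0.557), while without control 3 Krt7 rose by 1.01 ± 0.19 (adjusted p = 0.0233). Dropping any other array gave no call for Krt7 (adjusted p up to 0.869). As control 3 held the highest Krt7 value, the fit without it is a description and no separate test.

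Krt8 and Krt18, which pair in filaments and are adjacent genes on chromosome 15, were likewise highest in control 3. Krt8 read 8.02, 8.48 and 9.82 in control and 9.49, 9.37 and 8.84 in mutant ducts. Krt18 read 9.22, 10.30 and 11.42 in control and 11.17, 11.29 and 10.77 in mutant ducts. In both genes control 3 was above every mutant, and every mutant was above control 1 and control 2. Without control 3 the differences were 0.99 ± 0.25 for Krt8 and 1.31 ± 0.32 for Krt18, which missed the threshold (limma adjusted p = 0.0880 and 0.0706). Krt19, a type I keratin of duct epithelia and mesothelium, read 10.08, 10.96 and 11.61 in control and 11.10, 11.08 and 10.60 in mutant ducts, with a difference of 0.04 and 0.41 in those fits. None of the 4 keratins passed over all arrays in limma's test, also at an unadjusted p under 0.05, and 1 passed without control 3. Mesothelium shares these keratins, and its list of 8 markers holds Krt19 itself and Upk1b, which the urothelial list holds too and which was 2.02 higher in control 3. The mean of the 8 was from 10.25 to 10.77 in control, highest in control 3, and from 10.31 to 10.72 in mutant ducts. Without Krt19 and Upk1b, a choice made after the data were seen, it was 10.23, 10.42 and 10.29 in control and 10.34, 10.19 and 10.73 in mutant ducts. Of the 8 Msln rose in both fits, by 1.48 ± 0.22 over all arrays (limma adjusted p = 0.00664), and none was below background on every array. Its part in the keratin values was not tested.

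Of the apical genes, the membrane mucin Muc1 rose 3.01-fold. It read 8.94, 9.05 and 9.05 in the controls, within an SD of 0.07, and 11.07, 10.92 and 9.82 in mutant 1, 2 and 3. All mutants lay above all controls, and mutant 3 was the lowest of them. The difference was 1.59 ± 0.30 (limma adjusted p = 0.0213) and 1.61 ± 0.35 without control 3 (adjusted p = 0.0441). Dropping control 1, control 2, mutant 1 or mutant 2 ended the call (adjusted p from 0.0756 to 0.0863), and the difference was 1.98 ± 0.17 without mutant 3 (adjusted p = 0.00195). The fit without mutant 3 drops the mutant with the lowest Muc1 value, so it is a description and no separate test. Prom1, which encodes prominin-1 of apical membrane protrusions, went the other way, with 10.48, 10.59 and 10.30 in control and 10.002, 9.88 and 10.28 in mutant ducts. Control 3 and mutant 3 were nearly equal, and the difference of -0.40 ± 0.18 did not pass (limma adjusted p = 0.325).

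The duct transcription factors showed no common direction. Sox17, an HMG-box factor of uterine glands and also of endothelium, fell 1.96-fold over all arrays. It read 7.12, 6.41 and 6.86 in control and 5.80, 6.03 and 5.65 in mutant ducts, without overlap, and mutant 3 was below background. The difference of -0.97 ± 0.21 (limma adjusted p = 0.0445) was -0.93 ± 0.25 without control 3 and no longer passed (adjusted p = 0.101). Dropping control 1 or any of the mutants ended the call as well (adjusted p from 0.0726 to 0.162). Endothelial markers, a list added after the value of Sox17 was seen, had means from 10.18 to 10.28 in control and from 9.92 to 10.27 in mutant ducts, and all 10 were above background on every array. Of the 10, Kdr rose by 1.10 ± 0.16 (limma adjusted p = 0.00624) and none fell, with 1 lower at an unadjusted p under 0.05. The mutant mean was lower for 8 of the 10 and higher for 2. The median difference was -0.23, beside -0.01 over all transcript clusters. The part of these markers in the fall of Sox17 was not tested.

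Emx2, a homeobox factor needed for the urogenital tract, read 12.33, 12.47 and 11.85 in control and 11.75, 11.67 and 11.12 in mutant ducts. The groups did not overlap, with control 3 just above mutant 1. Its difference was -0.71 ± 0.23 (limma adjusted p = 0.174), and -0.89 ± 0.24 without control 3 (adjusted p = 0.0981). The paired-box factors Pax2 and Pax8 were set apart by mutant 3. Pax2 read 8.71, 8.01 and 8.51 in control, 8.33 and 8.50 in mutant 1 and mutant 2, and 6.80 in mutant 3. Pax8 read 9.77, 9.86 and 9.58 in control, 10.23 and 10.12 in mutant 1 and mutant 2, and 8.57 in mutant 3. Apart from mutant 3, Pax2 overlapped between genotypes and Pax8 was higher in the mutants. Their differences over all arrays were -0.53 (interval from -1.45 to 0.39) and -0.10 (interval from -0.97 to 0.78).

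Msx2, a homeobox gene of the BMP response, read 8.16, 8.41 and 9.20 in control, and 9.999, 10.32 and 8.12 in mutant ducts. Mutant 1 and mutant 2 were above all controls and mutant 3 below all of them. The difference of 0.89 ± 0.52 did not pass over all arrays (limma adjusted p = 0.474) or without control 3 (adjusted p = 0.358). Of the 6 fits that left out 1 array, only that without mutant 3 passed, with 1.57 ± 0.31 (limma adjusted p = 0.0452). That fit drops the mutant with the lowest Msx2 value, so it is a description and no separate test. Lhx1, the LIM-homeobox factor of duct formation, read 4.66, 3.72 and 4.26 in control and 5.25, 5.73 and 5.27 in mutant ducts. It rose by 1.20 ± 0.25 (limma adjusted p = 0.0358), but all 6 values were below background, so its size has little meaning. Dropping any single array but control 1 ended the call (adjusted p from 0.0690 to 0.120, with 0.0690 for control 3). Foxa2, a forkhead factor of uterine glands, lay between 3.82 and 4.32 on all arrays, also below background. Over all arrays 1 of the 7 duct factors rose and 1 fell. Without control 3 none passed in limma's test, while 1 was higher and 2 lower at an unadjusted p under 0.05.

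Regulators of the epithelial state did not pass in either fit. Mutant 3 lay at a median of -1.26 from the mean of mutant 1 and mutant 2 for these 7 genes, beside -0.78 for all 35. Grhl2, a Grainyhead-like activator of junction genes, read 7.64, 7.40 and 7.67 in control and 7.93, 7.94 and 6.52 in mutant ducts. The splicing factor Esrp1 read 8.09, 7.28 and 7.80 in control and 8.49, 8.18 and 6.69 in mutant ducts. Ehf, an ETS factor of epithelia, read 8.24, 9.22 and 9.02 in control and 8.84, 7.99 and 6.71 in mutant ducts. In each of these genes mutant 3 was the lowest of the 6 arrays. The related splicing factor Esrp2 was instead high in control 3, with 5.69, 7.13 and 8.89 in control and 8.53, 8.26 and 7.61 in mutant ducts. Its difference was 0.90 ± 0.65 over all arrays and 1.72 ± 0.41 without control 3 (limma adjusted p = 0.583 and 0.0683). Elf3, another ETS factor, read 6.46, 6.21 and 7.04 in control and 7.94, 8.06 and 6.74 in mutant ducts, and its difference of 1.01 ± 0.35 did not pass (limma adjusted p = 0.203). Of the 6 fits of Elf3 that left out 1 array, only that without mutant 3 passed, with 1.43 ± 0.26 (limma adjusted p = 0.0340). It drops the mutant with the lowest Elf3 value, so it too is a description and no separate test. Ovol1 and Ovol2, zinc finger repressors of mesenchymal genes, were below background throughout, from 4.15 to 4.98 and from 3.59 to 4.27. At an unadjusted p under 0.05 Elf3 alone of the 7 was higher over all arrays.

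Of the surface protease genes, St14 encodes matriptase and Spint1 and Spint2 its inhibitors. Spint1 read 8.35 and 8.53 in control 1 and control 2, 10.32 in control 3, and 8.85, 9.06 and 8.12 in the mutants. Its difference was -0.39 over all arrays and 0.24 without control 3, with intervals from -1.47 to 0.69 and from -0.40 to 0.88. Spint2 read 10.05, 9.89 and 10.63 in control and 10.48, 10.68 and 9.69 in mutant ducts. St14 stayed near background, from 5.55 to 5.95 in control and from 5.49 to 6.37 in mutant ducts. None of the 3 passed in either fit, also at an unadjusted p under 0.05, and mutant 3 was the lowest of the 6 arrays for each.

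**Figure D4:**
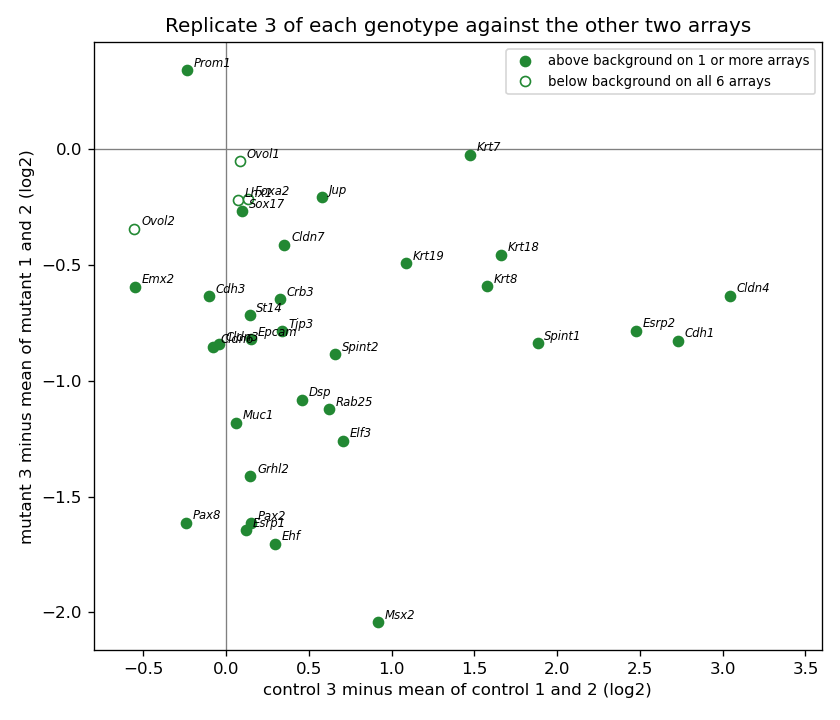
For each of the 35 genes, control 3 minus the mean of control 1 and 2 (horizontal axis, log2) against mutant 3 minus the mean of mutant 1 and 2 (vertical axis, log2), with open circles for genes below background on all arrays. Cldn4, Cdh1 and Esrp2 lie far to the right, Msx2, Ehf, Esrp1, Pax2 and Pax8 lie lowest, and only Prom1 was higher in mutant 3.

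Leaving out both control 3 and mutant 3, an alternative added after the data were seen, left 2 arrays per genotype. Of the 35 genes 6 then rose (Cdh3, Muc1, Jup, Krt8, Msx2 and Elf3), or 17.1% where 2.05% of all transcript clusters rose. None fell, against 0.455% of all, with 3 lower at an unadjusted p under 0.05 in limma's test. Muc1 was at 2.00 ± 0.21 (adjusted p = 0.00305), Msx2 at 1.88 ± 0.23 (adjusted p = 0.00585), Cdh3 at 1.76 ± 0.23 (adjusted p = 0.00762), Elf3 at 1.66 ± 0.21 (adjusted p = 0.00701), Krt8 at 1.19 ± 0.23 (adjusted p = 0.0421) and Jup at 1.18 ± 0.22 (adjusted p = 0.0320). Krt7 was at 1.02 ± 0.21 and just missed the threshold (adjusted p = 0.0503). The median of the 35 genes was 0.52, beside -0.01 over all transcript clusters. Both arrays left out were chosen by their values for these genes. This median, these counts and these adjusted p-values therefore describe the remaining 4 arrays and are no separate test. Cdh3 and Muc1 are the genes that passed both over all arrays and without control 3.

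Other genes of epithelial cells, 36 junction, polarity and regulatory genes of which 32 had a row, were read in the same way. F11r, a tight junction adhesion molecule, rose by 1.07 ± 0.18 (limma adjusted p = 0.0116), and Klf5, a Krüppel-like factor of epithelia, by 1.62 ± 0.29 (adjusted p = 0.0170). F11r read 9.97, 10.26 and 10.32 in control and 11.38, 11.05 and 11.32 in mutant ducts, without overlap. Klf5 read 10.10, 9.22 and 10.51 in control and 11.57, 11.57 and 11.55 in mutant ducts. These were 6.25% of the 32, against 2.59% of all, and none fell, with 4 lower at an unadjusted p under 0.05. Without control 3, 4 rose (12.5%, against 2.54% of all), F11r, Klf5, Perp (1.29 ± 0.25) and Pard6b (0.95 ± 0.19). None fell, against 0.594% of all, with 2 lower at an unadjusted p under 0.05. Without control 3 and mutant 3, Klf5 alone rose (3.12%, against 2.05% of all), by 1.92 ± 0.30 (limma adjusted p = 0.0165), and none fell, with 0 lower at an unadjusted p under 0.05. F11r (adjusted p = 0.0515), Perp (0.0561) and Pard6b (0.0531) then missed the threshold. The list's median was -0.04 over all arrays, 0.10 without control 3 and 0.09 without both arrays. Control 3 was the highest control for 22 of the 32 (68.8%) and mutant 3 the lowest mutant for 22 (68.8%), against 32.5% and 36.0% of all transcript clusters.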

How the data were processed

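Müllerian ducts of 6 mouse embryos were profiled on Affymetrix arrays. The authors deposited 1 table of log2 signals, made with Transcriptome Analysis Console 4.0 according to the submitters' processing notes. How probes were summarised and arrays normalized, and the genome build, are not given in the sources used here. Log2 values were not normalized again. Of 28846 rows, 6640 control and background rows were left out and 22206 were tested. The platform annotation gave 1 symbol for 19572 of them. Groups came from the titles.

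Genotype was the only term of a limma 3.58.1 model (lmFit, eBayes; R 4.3.3), two-sided, with Benjamini-Hochberg adjustment over all tested rows and a threshold of 0.05. The fit was tested on simulated data. A gene is below background where it is under the median of the array's 23 background probes. The genes, marker lists and rules were chosen with earlier results of these data known. Every gene with a row is accounted for, and of each other list at most 4 genes that passed are named, and for urothelium and smooth muscle up to 4 with the largest control 3 minus mean of control 1 and control 2. Others are named after their values were seen. Precision is limited by the number of arrays, and p-values measure the spread between embryos of unstated litter. Alternatives were other scalings, filters on dim rows, priors, array weights, a block for the replicate number, and each array left out. Promoter windows were searched for 10 short motifs on both strands. Figures were drawn with matplotlib 3.10.9.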

Additional observations from a re-analysis of the deposited data

How the results depend on the processing

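Over the fits that left out 1 array, between 1 and 4 of the 35 genes rose, between 0 and 1 fell, and their median log2 difference ran from -0.04 to 0.37. Cdh3 was called in all 16 alternatives. With a threshold of 0.01 it was the only gene called, 1 rise and 0 falls. Falls also numbered 0 under the filter at the median signal, where Sox17 was not tested, with the replicate number as a block, and without control 3 and mutant 3 together, where 6 genes rose with a median of 0.52. With that block, 2 genes rose, Cdh3 and Muc1. Deviations of same-numbered arrays from their group means were nearly uncorrelated (0.0078, 0.042 and -0.0030). With 3 arrays per group these values do not show whether the numbers pair the embryos, and the labels name no pairing. Without control 3, 4 other epithelial genes and 4 smooth muscle markers were called, where 3.14% of all rows were. Over all arrays 2 of each were called, where 3.26% of all rows were. Without control 3 and mutant 3 these counts were 1 and 4. Jup passed when arrays were shifted to a common median (adjusted p = 0.0382), under both filters (0.0411 and 0.0236), with the trended and robust prior (0.0156), with array weights (0.0337) and on rows with 1 symbol only (0.0481). The cause of these changes was not tested.

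Some differences that were never called changed sign. With array weights these were Pax8 (0.056), Dsp (0.12), Grhl2 (0.0080) and Ovol1 (0.050). Dsp was at 0.0076 with quantile normalization and 0.017 with a common median. Without control 3 and mutant 3 the values were 0.056 for Pax2, 0.36 for Pax8, 0.68 for Cdh1, 0.019 for Cldn3, 0.21 for Cldn4, 0.067 for Rab25, 0.090 for Crb3, 0.51 for Dsp, 0.41 for Grhl2 and 0.52 for Spint1. Over fits that left out 1 array, ranges that crossed 0 were -0.84 to 0.0059 for Pax2, -0.39 to 0.44 for Pax8, -0.36 to 0.41 for Krt19, -0.99 to 0.40 for Cdh1, -0.44 to 0.034 for Cldn3, -0.14 to 0.32 for Tjp3, -0.25 to 0.36 for Dsp, -0.29 to 0.61 for Esrp1, -0.35 to 0.37 for Grhl2, -0.27 to 0.14 for Ovol1, -0.11 to 0.19 for Ovol2, -0.75 to 0.24 for Spint1, -0.10 to 0.39 for Spint2 and -0.028 to 0.41 for St14.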

Other observations

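Markers of the Wolffian duct and kidney epithelium, which share Pax2, Pax8 and Lhx1 with the Müllerian duct, had means of 5.55, 5.66 and 5.999 in control 1, 2 and 3 and from 5.57 to 5.68 in mutant ducts. Aqp3 and Ret, named after their values were seen, were high in control 3, with 7.94 against 4.91 and 4.83 in the other controls for Aqp3 and 7.89 against 5.66 and 5.49 for Ret. Of the 11 measured, 5 were below background on every array (Calb1, Aqp2, Six2, Umod and Slc12a1). None passed in limma's test over all arrays or without control 3, with 1 and 0 at an unadjusted p under 0.05. Of 12 mesenchyme markers measured, Amhr2, the locus of the Cre, fell by 3.73 on the log2 scale (SE 0.25, limma adjusted p = 0.000112) and none rose. At an unadjusted p under 0.05, 5 of the 12 were lower, Amhr2 among them, and 1 was higher. Without control 3 these counts were 6 and 1. The list's mean, which includes Amhr2, ran from 11.73 to 11.96 in control and from 11.13 to 11.57 in mutant ducts, lowest in mutant 3. The median deviation of the 12 from their means over all arrays is less moved by a single gene. It was 0.29, 0.11 and -0.03 in control and -0.15, 0.01 and -0.42 in mutant ducts, so the genotypes overlapped.

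Besides the motifs named above, 6 others were searched in the promoter windows of the 25 genes, on both strands. CACGTG was in 3 genes (9.1% of their windows against 7.2% of all), GTCACGC in 1 (3.0% against 2.1%) and TAATTA in 2 (6.1% against 5.3%). TTTAAA was in 2 (6.1% against 13.2%), TATAAA in 3 (9.1% against 13.6%) and TGTTTAC in 0 (3.6% of all).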
